A study of Mus musculus with 10 samples.

Results

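Perforin (Prf1) and the granzymes Gzma, Gzmb, Gzmc, Gzmd, Gzme, Gzmf, Gzmg, Gzmk and Gzmm were described across 10 bulk RNA libraries of T cells from mouse melanoma. The 10 members were taken by symbol from a table of 48825 genes. Of these members, 8 reached 10 normalized counts in at least 2 libraries and entered the tests with 15716 genes in all, whereas Gzme and Gzmg did not. Gzmd and Gzmf passed this filter through a pair of libraries each, so a count over the members that passed is a description only. The value used throughout is the normalized count, a read count divided by a factor for the library's depth. Levels are also given per Cd8a count, because Cd8a, a chain of the CD8 coreceptor, marks the T cells best known for these transcripts.

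All mice, controls included, were of 1 engineered melanoma strain that carries BrafCA and Tyr::CreER, in which a tyrosinase-driven inducible Cre acts in melanocytes to activate Braf, and tumors were induced locally. The genotype label reads wild type for all. The CSF1Ri+CD40 group (2 libraries, numbered 1 and 3) received chow with the CSF1 receptor inhibitor PLX6134 at 600 mg/kg together with the CD40 agonist antibody FGK4.5 at 10 mg/kg every 3 days. The CSF1Ri group (2 libraries, called 1 and 6 here) received the inhibitor chow, and the CD40 group (3 libraries) the antibody. The control group (3 libraries) had normal chow and vehicle. Treatment began 30 days after induction, at a tumor volume below 100 mm3, and lasted up to 30 days or until 2 cm3. Ages are given as matched. Each library pooled at least 3 tumors. With 2 or 3 libraries in each group, p-values measure the spread between such pools.

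The titles name T cells while the tissue label names tumor-associated macrophages. Cd3e, a chain of the T cell receptor complex, stood at 10586 to 23096 normalized counts in the 10 libraries, and Csf1r, the defining receptor of macrophages, at 30 to 235. Total normalized counts ran from 11538244 to 14024851. Transcripts of the Y chromosome summed to 2438 in control 1, 1569 in CD40 2 and 3072 in CD40 3, and to at most 1 elsewhere; the labels used here give no sex. CD40 2 and CD40 3 lay apart from the rest on the leading principal components, as did CSF1Ri+CD40 3. CD40 3 held the most Malat1, a nuclear RNA, with 95260 against 14056 to 59286 in the other libraries, and the least Cd8a. Libraries were made without strand information.

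Cytotoxic T cells and natural killer (NK) cells store granzymes and perforin in secretory granules that are released toward a target cell. Perforin forms pores through which granzymes, a family of serine proteases, reach the target's interior. Granzyme B cleaves caspases and their substrates, whereas granzymes A and K cut after basic residues. In mice, Gzmb shares a chromosome 14 cluster with Gzmc to Gzmg, and Gzma lies beside Gzmk on chromosome 13.

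Every member has a single gene in the annotation used here (GENCODE, GRCm38). Prf1 spans chr10:61297833-61304680 and Gzmm chr10:79689020-79695261, both on the plus strand. Gzma spans chr13:113093825-113100981 and Gzmk chr13:113171608-113225908, both on the minus strand. The chromosome 14 members all lie on the minus strand, from Gzme at chr14:56117626-56120625 through Gzmd (chr14:56129556-56132608), Gzmg (chr14:56156582-56159579), Gzmf (chr14:56205263-56211417) and Gzmc (chr14:56231441-56234656) to Gzmb at chr14:56258838-56262260. Exact 75-base stretches shared with another granzyme made up 5.73% of the Gzmd transcript, 4.75% of Gzme and 6.83% of Gzmg, and 0 of the other members that are granzymes, so reads of those 3 could be split or lost in counting. Gzmf shares exon bases with the opposite-strand gene Gm4022, and their reads cannot be told apart here.

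Promoter sequences of 6 members are shown, the neighbors Gzma and Gzmk, perforin, and Gzmb with its neighbors Gzmc and Gzmd, because neighboring genes had very different levels in these libraries. Each covers 250 bases before to 50 after the annotated start (RefSeq, GRCm38.p6), read 5′ to 3′ on the gene's own strand. RefSeq starts can differ from those of the GENCODE spans above. The Gzmb window lies wholly upstream of the GENCODE gene, and the Gzmk window lies well inside the GENCODE span. Capitals mark matches, on either strand, to the Runx motif TGTGGT (in 16.8% of 32851 promoters), the Ets motif CAGGAAG (13.3%), the T-box motif GGTGTGA (3.98%), the AP-1 motif TGANTCA (7.81%), the STAT motif TTCNNNGAA (8.30%) or the CRE motif TGACGTCA (1.79%). The windows are chr13:113180916-113181215 (minus) for Gzmk, chr13:113100932-113101231 (minus) for Gzma, chr10:61297586-61297885 (plus) for Prf1, chr14:56262285-56262584 (minus) for Gzmb, chr14:56234608-56234907 (minus) for Gzmc and chr14:56132544-56132843 (minus) for Gzmd.
Gzmk: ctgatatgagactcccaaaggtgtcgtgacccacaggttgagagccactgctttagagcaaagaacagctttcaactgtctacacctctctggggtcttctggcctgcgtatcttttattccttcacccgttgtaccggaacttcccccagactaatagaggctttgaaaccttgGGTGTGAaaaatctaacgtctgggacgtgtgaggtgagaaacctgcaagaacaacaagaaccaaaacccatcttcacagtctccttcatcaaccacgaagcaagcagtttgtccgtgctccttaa
Gzma: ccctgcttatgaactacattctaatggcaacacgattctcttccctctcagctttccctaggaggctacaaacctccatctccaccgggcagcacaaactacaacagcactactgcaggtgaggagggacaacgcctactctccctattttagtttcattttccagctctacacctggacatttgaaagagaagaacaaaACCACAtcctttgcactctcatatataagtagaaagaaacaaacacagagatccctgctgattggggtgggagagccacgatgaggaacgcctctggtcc
Prf1: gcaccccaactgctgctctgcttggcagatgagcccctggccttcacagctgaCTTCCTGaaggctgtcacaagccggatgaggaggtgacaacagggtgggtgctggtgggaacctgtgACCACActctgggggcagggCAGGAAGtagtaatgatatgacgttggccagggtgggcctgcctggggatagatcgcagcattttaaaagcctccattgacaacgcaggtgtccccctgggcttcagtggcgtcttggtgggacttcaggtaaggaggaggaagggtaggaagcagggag
Gzmb: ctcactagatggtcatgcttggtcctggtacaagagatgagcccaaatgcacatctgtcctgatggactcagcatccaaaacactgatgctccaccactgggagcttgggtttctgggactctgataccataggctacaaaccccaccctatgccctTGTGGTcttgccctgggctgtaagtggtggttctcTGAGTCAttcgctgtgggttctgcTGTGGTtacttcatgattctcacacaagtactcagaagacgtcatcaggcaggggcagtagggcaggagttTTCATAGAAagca
Gzmc: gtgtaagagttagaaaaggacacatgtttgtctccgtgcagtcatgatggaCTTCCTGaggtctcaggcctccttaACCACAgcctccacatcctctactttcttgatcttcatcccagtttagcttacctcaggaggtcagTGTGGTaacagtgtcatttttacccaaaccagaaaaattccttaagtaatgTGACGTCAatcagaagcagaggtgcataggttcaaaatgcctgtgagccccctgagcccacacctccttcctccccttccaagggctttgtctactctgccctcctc
Gzmd: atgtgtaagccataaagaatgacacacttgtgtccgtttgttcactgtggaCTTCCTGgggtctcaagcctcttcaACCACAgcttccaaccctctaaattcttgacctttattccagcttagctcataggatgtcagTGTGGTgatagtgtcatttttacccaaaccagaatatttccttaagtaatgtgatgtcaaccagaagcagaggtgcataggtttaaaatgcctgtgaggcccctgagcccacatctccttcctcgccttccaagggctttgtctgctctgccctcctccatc

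The Gzmk window held 1 T-box match, at -75 from the start, and no match to the other motifs, and the Gzma window held 1 Runx match at -50. Prf1 had 1 Runx and 2 Ets matches. Gzmb had 2 Runx matches, 1 AP-1 match at -58 and 1 STAT match beyond the RefSeq start, which lies outside the GENCODE span. Gzmc and Gzmd shared a layout, with a Runx match at -174 in both, an Ets match at -199 in both, and a second Runx match at -108 in Gzmc and -112 in Gzmd. Gzmc, Gzmf and Gzmg also held a CRE match. Promoter entries were found for all 10 members. A match describes letters in a window and is no evidence of binding.

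Per kilobase of exon, which allows levels of different genes to be compared, Gzmb and Gzma made up most of the granzyme and perforin transcripts. The summed level of all members was 10039 and 8640 normalized counts per kb in CSF1Ri+CD40 tumors, 4922 and 7013 in CSF1Ri tumors, 5757, 8714 and 2699 in CD40 tumors, and 3570, 5632 and 3783 in control tumors. Both combination libraries lay above every control and CSF1Ri library, while CD40 2 lay between them. Gzmb held 35.5% (control 1) to 63.4% (CD40 3) of that sum and Gzma 12.2% (CD40 2) to 56.1% (control 1). Gzmk held 17.9% and 22.1% in the combination libraries and 1.11% to 8.88% in the other 8.

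**Figure D1:**
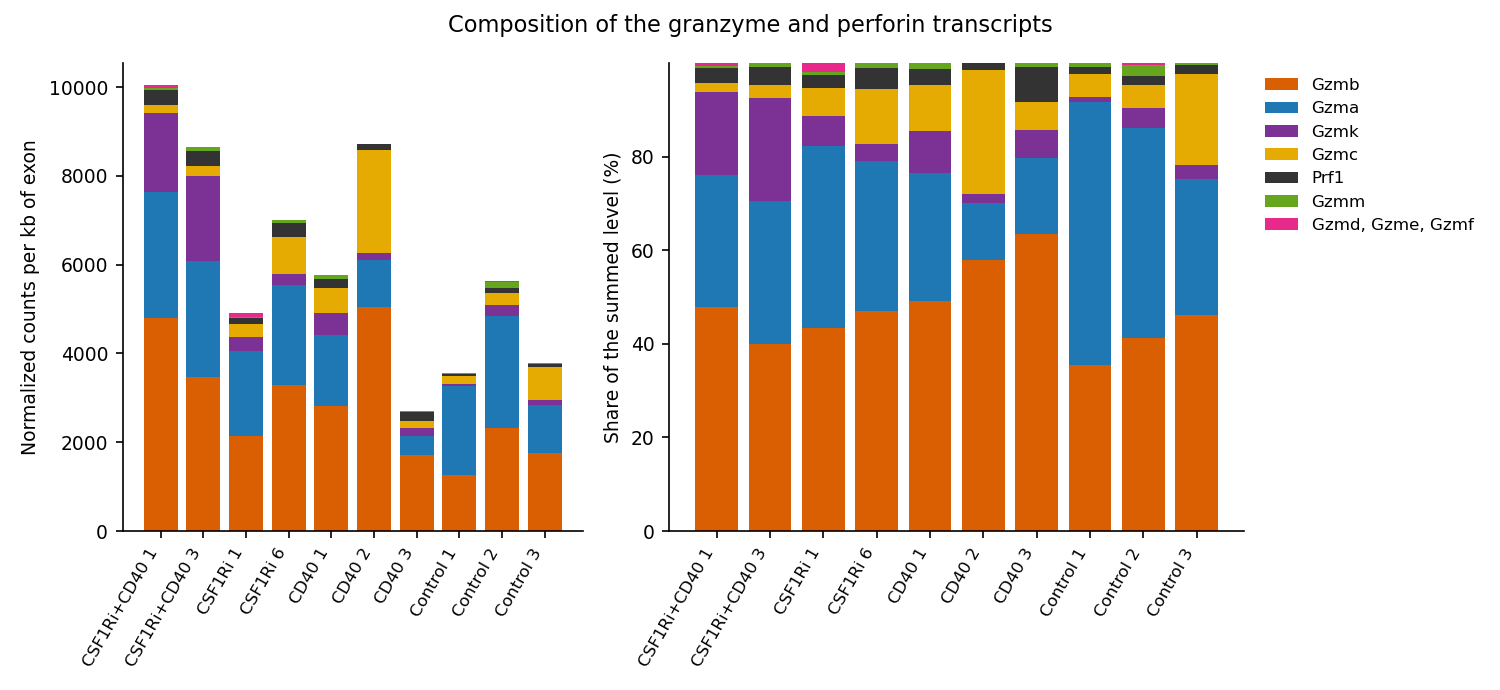
Composition of the granzyme and perforin transcripts in each library, as normalized counts per kb of exon (left) and as a percent of their sum (right). Libraries run from CSF1Ri+CD40 to control; the purple Gzmk segment is widest in the CSF1Ri+CD40 libraries, at 17.9% and 22.1%.

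The balance within the granule set differed between libraries as well. The per-kb ratio of Gzmb to Gzma was 1.70 and 1.32 in CSF1Ri+CD40 tumors, 1.11 and 1.47 in CSF1Ri tumors, 1.79, 4.74 and 3.88 in CD40 tumors, and 0.633, 0.922 and 1.60 in control tumors. All 3 CD40 libraries were above all 3 controls, with CD40 1 close to control 3. Perforin amounted to 3.34 and 4.07 per 100 granzyme transcripts per kb in CSF1Ri+CD40 tumors, 2.96 and 4.49 in CSF1Ri tumors, 3.56, 1.49 and 7.97 in CD40 tumors, and 1.56, 2.01 and 1.98 in control tumors. CD40 2 was thus the only treated library below the controls in perforin per granzyme. These ratios were not tested.

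The 3 treatments were each compared with control, which asks whether killing genes of tumor T cells differ under myeloid-directed treatment. The 3 comparisons share the control libraries. The threshold was 0.05 for p-values adjusted over all genes tested (limma on log2 of the normalized count plus 1, Benjamini-Hochberg), and 0 of the 8 members reached it in any of them. Over all genes, 0.00636% passed in CSF1Ri over control, 0.00636% in CD40 over control and 0% in CSF1Ri+CD40 over control, where 849 of 15716 genes and 3 of the 8 members (Gzmk, Prf1 and Gzmb) had an unadjusted p under 0.05. Levels of single members and their overlap between groups are therefore given as descriptions. How many of all genes had both combination libraries above all others, or all CD40 libraries below all CSF1Ri libraries, was not counted. In bulk libraries such as these, more killer cells and more transcript per cell cannot be told apart.

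Perforin, the pore former, was lowest in control tumors. Prf1 stood at 839 and 874 normalized counts in CSF1Ri+CD40 tumors, 366 and 778 in CSF1Ri tumors, 511, 330 and 515 in CD40 tumors, and 142, 287 and 190 in control tumors. Every treated library was above every control library, a property of 0.923% of all genes tested, and the combination libraries were above all others. The means were 857 ± 24.7, 572 ± 291, 452 ± 106 and 206 ± 73.9 in the same group order (SD, n = 2, 2, 3 and 3). The log2 fold change over control was 2.11 ± 0.422 in the combination (SE, limma adjusted p = 0.477), 1.43 ± 0.422 in CSF1Ri tumors (adjusted p = 1) and 1.16 ± 0.378 in CD40 tumors (adjusted p = 0.699). By p, Prf1 was 11th of 15716 genes in the combination and 46th in CSF1Ri tumors. CSF1Ri and CD40 tumors overlapped, so their order is not resolved.

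Granzyme K, a trypsin-like granzyme, had the widest difference of the set. Gzmk stood at 2491 and 2651 normalized counts in CSF1Ri+CD40 tumors, 442 and 345 in CSF1Ri tumors, 710, 217 and 219 in CD40 tumors, and 55, 338 and 161 in control tumors. The combination libraries were far above the other 8, of which the highest was CD40 1. CSF1Ri libraries also lay above all controls, narrowly above control 2, and CD40 libraries overlapped both. The mean was 2571 ± 113 in the combination and 185 ± 143 in control, a ratio of 13.9. Gzmk had a log2 fold change of 4.14 ± 0.687 over control (SE, limma adjusted p = 0.216) and was 4th of 15716 genes by p.

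Gzmk was also set against each single treatment. CSF1Ri+CD40 over CSF1Ri gave a log2 fold change of 2.72 ± 0.753 (SE, limma adjusted p = 1) and CSF1Ri+CD40 over CD40 one of 2.99 ± 0.687 (adjusted p = 0.694). The interaction, the excess of the combination over the sum of the single treatments on the log2 scale, was 1.56 ± 0.972 (adjusted p = 0.991). Control 1, CD40 2 and CD40 3, the libraries with Y-linked transcripts, held the lowest or near lowest Gzmk of their groups, and the combination libraries summed to at most 1 in such transcripts. With a term for Y-linked transcripts in the fit, Gzmk passed in CSF1Ri+CD40 over control (log2 fold change 3.60, adjusted p = 0.0382), the only gene of all tested to do so (0.00636%). Over all alternatives its adjusted p ran from 0.0382 to 0.848. The part of sex in the Gzmk difference was not tested beyond that term.

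**Figure D2:**
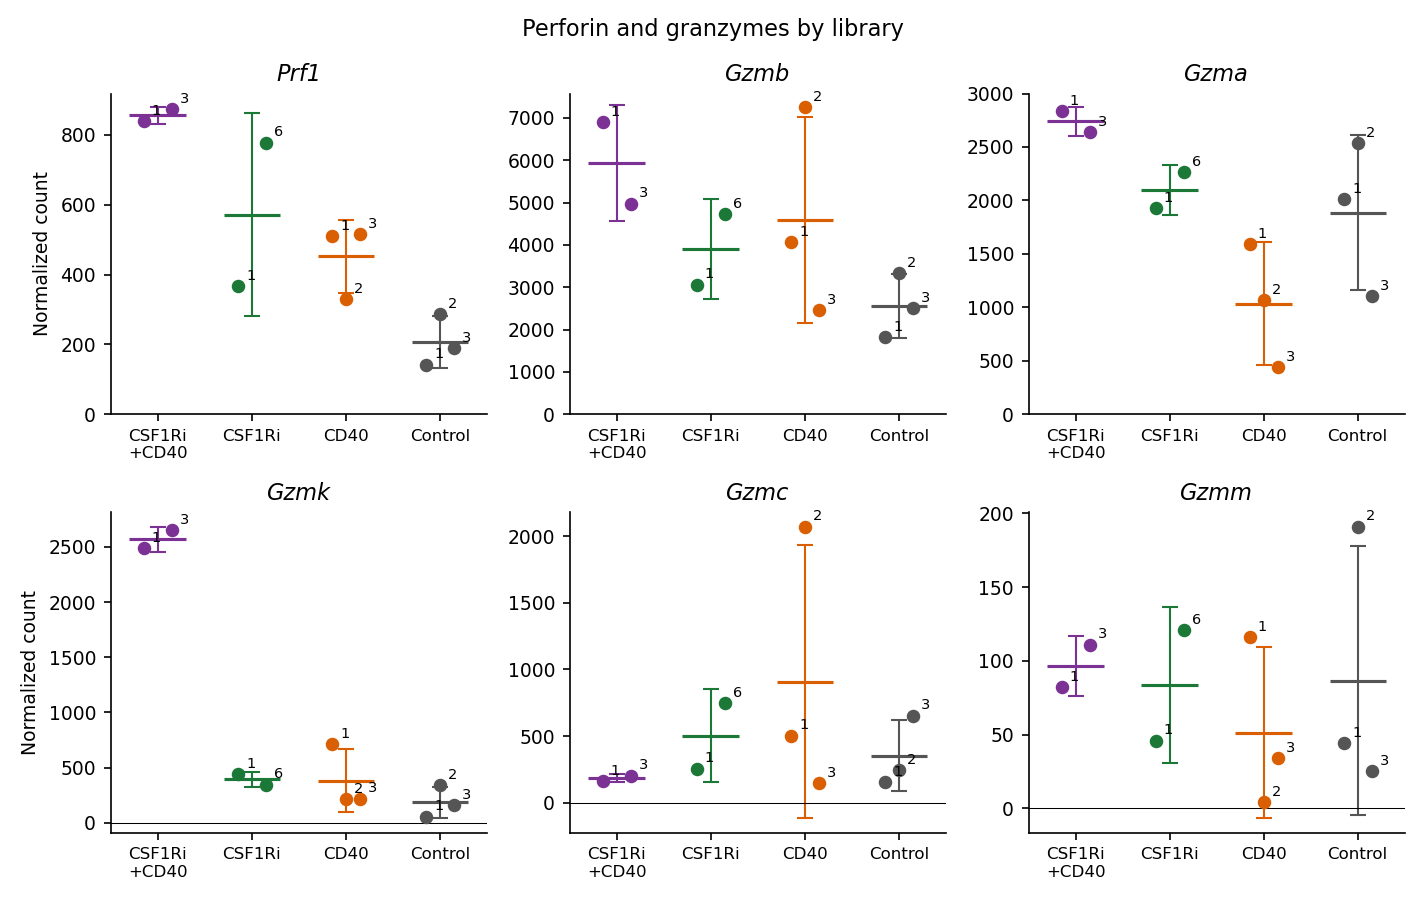
Normalized counts of 6 members in each library, with the group mean (line) and SD (bar) and the library number beside each point; groups run from CSF1Ri+CD40 to control. Gzmk lies at 2491 and 2651 in the CSF1Ri+CD40 libraries and at or below 710 in the others, and Prf1 is lowest in the control libraries.

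Granzyme A, the neighbor of Gzmk, did not share its profile. Gzma stood at 2838 and 2642 normalized counts in CSF1Ri+CD40 tumors, 1930 and 2262 in CSF1Ri tumors, 1591, 1071 and 444 in CD40 tumors, and 2015, 2538 and 1102 in control tumors. All CD40 libraries were below all CSF1Ri libraries and below control 1 and 2, while CD40 1 and control 3 overlapped the ranges of the other group. The combination libraries were the highest, closely followed by control 2. Over control, Gzma had a log2 fold change of 0.62 ± 0.474 in the combination (SE, limma adjusted p = 0.932), 0.23 ± 0.474 in CSF1Ri tumors (adjusted p = 1) and -0.96 ± 0.424 in CD40 tumors (adjusted p = 0.773). It was 1.59 ± 0.474 higher in the combination than in CD40 tumors (adjusted p = 0.853), with an interaction of 1.35 ± 0.671 (adjusted p = 0.991). Across the 10 libraries, Gzma correlated with Gzmk at r = 0.455 and with Prf1 at r = 0.206, against r = 0.839 between Gzmk and Prf1, as a description of libraries that share groups.

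Granzyme B, the main caspase-activating granzyme, was the most abundant member per kb in 8 of 10 libraries. Gzmb stood at 6901 and 4972 normalized counts in CSF1Ri+CD40 tumors, 3061 and 4732 in CSF1Ri tumors, 4057, 7246 and 2457 in CD40 tumors, and 1820, 3342 and 2513 in control tumors. Both combination libraries were above all control and CSF1Ri libraries, but the single highest value came from CD40 2, and CD40 3 lay within the control range. The log2 fold change over control was 1.24 ± 0.410 in the combination (SE, limma adjusted p = 0.81), 0.62 ± 0.410 in CSF1Ri tumors (adjusted p = 1) and 0.75 ± 0.367 in CD40 tumors (adjusted p = 0.786). The order of Gzmb in CSF1Ri and CD40 tumors is not resolved.

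Granzyme C, the member next to Gzmb on chromosome 14, followed another order. Gzmc stood at 163 and 204 normalized counts in CSF1Ri+CD40 tumors, 256 and 749 in CSF1Ri tumors, 503, 2071 and 149 in CD40 tumors, and 156, 246 and 654 in control tumors. CD40 2, which also had the most Gzmb, held the highest value and 26.6% of the per-kb sum of the set. The combination libraries were below both CSF1Ri libraries and inside the control range. The log2 fold change over control was -0.68 ± 0.928 in the combination (SE, limma adjusted p = 0.965), 0.58 ± 0.928 in CSF1Ri tumors (adjusted p = 1) and 0.87 ± 0.830 in CD40 tumors (adjusted p = 0.889). Within the CD40 group the libraries differed by 13.9-fold.

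The rest of the chromosome 14 cluster was at or near 0. Gzmd was at 30 and 1 normalized counts in CSF1Ri+CD40 tumors, 57 and 0 in CSF1Ri tumors, and 0 in all CD40 and control libraries. Gzme was found in CSF1Ri 1 alone, at 32, and Gzmf at 23 in CSF1Ri+CD40 1, 21 in control 2 and 1 in control 1. Gzmg was listed at 0 in all 10 libraries, as was Gzmn, a granzyme of the same cluster outside the set. CSF1Ri 1 was the only library with both Gzmd and Gzme. Levels this low do not allow an order of groups.

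Granzyme M, encoded on chromosome 10 apart from the other granzymes, was low. Gzmm stood at 82 and 111 normalized counts in CSF1Ri+CD40 tumors, 46 and 121 in CSF1Ri tumors, 116, 4 and 34 in CD40 tumors, and 44, 191 and 25 in control tumors. The groups overlapped throughout, with the highest value in control 2 and the lowest in CD40 2. Its log2 fold changes over control were 0.67 ± 1.25, 0.32 ± 1.25 and -1.15 ± 1.12 in the combination, CSF1Ri and CD40 tumors (SE, limma adjusted p = 0.98, 1 and 0.89).

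Set side by side, the number of members above every control library was 5 of 8 in the combination (Prf1, Gzma, Gzmk, Gzmb and Gzmd), 2 in CSF1Ri tumors (Prf1 and Gzmk) and 1 in CD40 tumors (Prf1). Of all genes tested, 10.6%, 11.6% and 4.19% did so in those comparisons, in that order. Gzmd counts there through values of 30 and 1 against 0. No member was below every control library in the combination, CSF1Ri or CD40 tumors, against 9.6%, 10.3% and 4.91% of all genes. Against CSF1Ri tumors, the combination libraries were both higher in 4 of 8 members (16.5% of all genes) and lower in Gzmc (16.8% of all genes). Against CD40 tumors they were higher in Prf1, Gzma, Gzmk and Gzmd (8.19% of all genes), and lower in 0 members (6.84% of all genes). None of the remaining 5 comparisons, which set the combination against each agent, test the interaction or average over the other agent, had a gene past the threshold (0% of all genes); 563 to 780 genes had an unadjusted p under 0.05 in them. Libraries given the inhibitor held at most 1 Y-linked count, while control 1, CD40 2 and CD40 3 carried such transcripts. The part of sex in differences of the members or Cd8a under the inhibitor was not tested beyond a fit with a Y-linked term. Averaged over both levels of the other agent, the inhibitor gave a log2 fold change of 2.21 ± 0.486 for Gzmk (SE, limma adjusted p = 0.845). For Prf1 it gave 1.19 ± 0.299 and for Gzma 0.91 ± 0.335 (adjusted p = 0.994 each). The antibody, averaged likewise, gave 1.94 ± 0.486 for Gzmk, 0.92 ± 0.299 for Prf1 and 0.68 ± 0.290 for Gzmb (adjusted p = 1 in each).

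**Figure D3:**
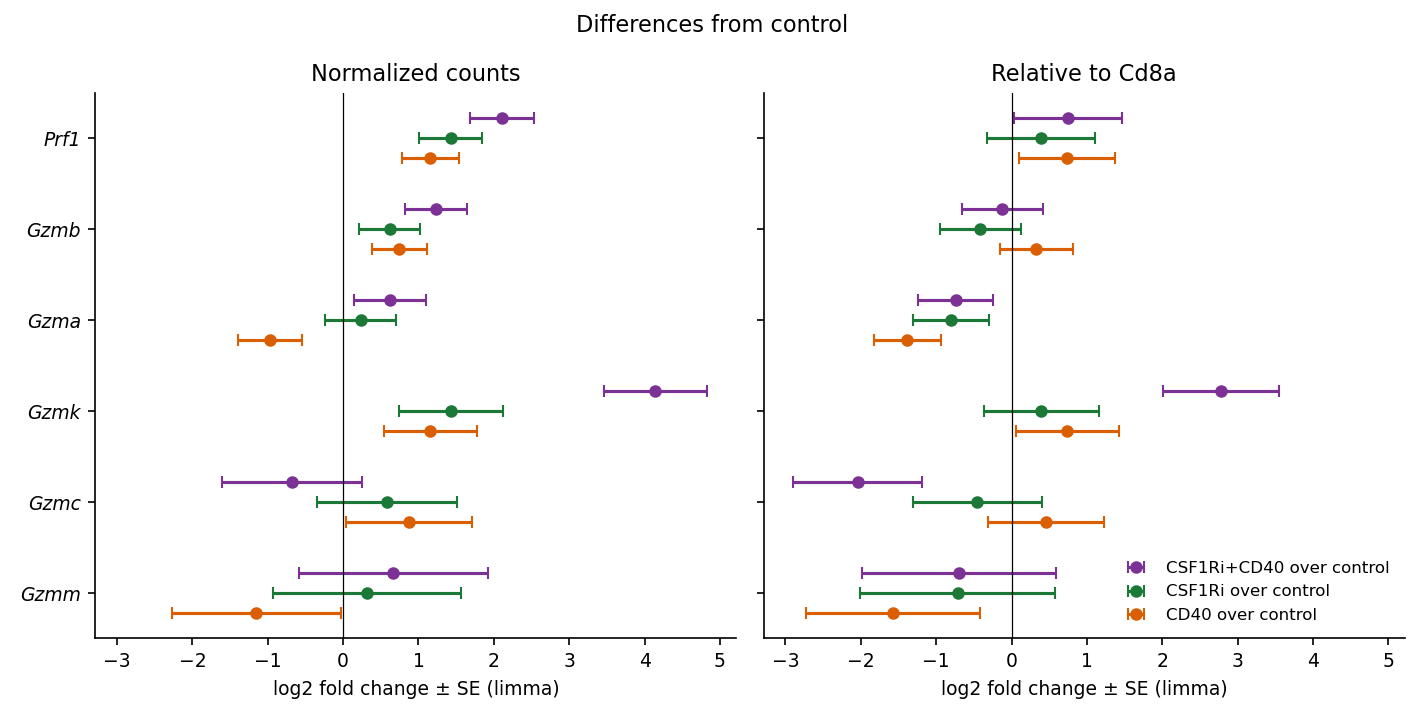
Log2 fold change over control with its SE (limma) for 6 members, on normalized counts (left) and relative to Cd8a (right); purple is CSF1Ri+CD40, green CSF1Ri and orange CD40. Gzmk in the combination lies farthest from 0 on both scales, at 4.14 and 2.78, and most other differences shrink or change sign relative to Cd8a.

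Members were then set relative to Cd8a, which asks whether a difference exceeds that of CD8 transcripts. Cd8a itself stood at 3785 and 4947 normalized counts in CSF1Ri+CD40 tumors, 3223 and 3685 in CSF1Ri tumors, 3949, 2744 and 1051 in CD40 tumors, and 1911, 1691 and 1475 in control tumors. All libraries given the inhibitor were above all controls, and CD40 3 was below them. Cd8a had a log2 fold change of 1.36 ± 0.431 in the combination (SE, limma adjusted p = 0.776), 1.03 ± 0.431 in CSF1Ri tumors (adjusted p = 1) and 0.42 ± 0.385 in CD40 tumors (adjusted p = 0.889). Dividing by it moved the median of all genes to -1.36, -1.02 and -0.43 on the log2 scale in the same 3 comparisons, so a member near 0 on this scale kept pace with Cd8a. Relative to Cd8a, 0 of 8 members passed in any comparison, against 0.0255%, 0.00636% and 0.0127% of all genes (limma).

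Gzmk per Cd8a count was highest in the combination, though the difference did not pass. It amounted to 0.658 and 0.536 per Cd8a count in CSF1Ri+CD40 tumors, 0.137 and 0.0936 in CSF1Ri tumors, 0.180, 0.0791 and 0.208 in CD40 tumors, and 0.0288, 0.200 and 0.109 in control tumors. The combination libraries were again above all 8 others. The log2 fold change over control was 2.78 ± 0.766 (SE, limma adjusted p = 0.143). With single libraries left out it ran from 2.00 to 3.39, with adjusted p from 0.00873 to 0.557. It passed without CD40 3, the library with the least Cd8a, but so did 39.7% of all genes in that fit.

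Prf1 and Gzmb did not pass relative to Cd8a either. Prf1 averaged 0.199 ± 0.0318 per Cd8a count in CSF1Ri+CD40 tumors, 0.162 ± 0.0690 in CSF1Ri tumors, 0.247 ± 0.211 in CD40 tumors and 0.124 ± 0.0479 in control tumors. Both combination libraries exceeded the controls, as did 0.935% of all genes. No member did so in CSF1Ri tumors (1.03% of all genes) or CD40 tumors (0.904%). CSF1Ri and CD40 libraries overlapped the controls in Prf1, and the CD40 mean rests on CD40 3 at 0.490. Gzmb averaged 1.41 ± 0.579, 1.12 ± 0.236, 2.00 ± 0.857 and 1.54 ± 0.530 per Cd8a count in the same group order, with all groups overlapping control. Their log2 fold changes relative to Cd8a in the combination were 0.75 ± 0.715 for Prf1 and -0.12 ± 0.539 for Gzmb (SE, limma adjusted p = 0.431 and 0.867).

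Gzma per Cd8a count lay below all controls in CD40 tumors, without passing the test. It amounted to 0.750 and 0.534 per Cd8a count in CSF1Ri+CD40 tumors, 0.599 and 0.614 in CSF1Ri tumors, 0.403, 0.390 and 0.422 in CD40 tumors, and 1.05, 1.50 and 0.747 in control tumors. The CD40 libraries lay close together and below all controls, as did 5.5% of all genes, and the CSF1Ri libraries did as well, as did 58.4% of all genes. In CSF1Ri tumors this is what most genes did, and it is not a result about Gzma. In CD40 tumors the log2 fold change was -1.38 ± 0.446 (SE, limma adjusted p = 0.967), against a median of -0.43 for all genes. With single libraries left out it ran from -1.63 to -1.13, with adjusted p from 0.0161 to 1. It passed without CD40 3, as did 16% of all genes in that fit. Gzmc averaged 0.0422 ± 0.00129 per Cd8a count in the combination and 0.224 ± 0.193 in control, below all controls as were 64.6% of all genes (log2 fold change -2.04 ± 0.857, SE, limma adjusted p = 0.146). With single libraries left out, this ran from -2.59 to -1.37, with adjusted p from 0.0472, without CD40 3, where 39.7% of all genes passed, to 0.557. Lying below the controls is again what most genes did and is not a result about Gzmc.

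**Figure D4:**
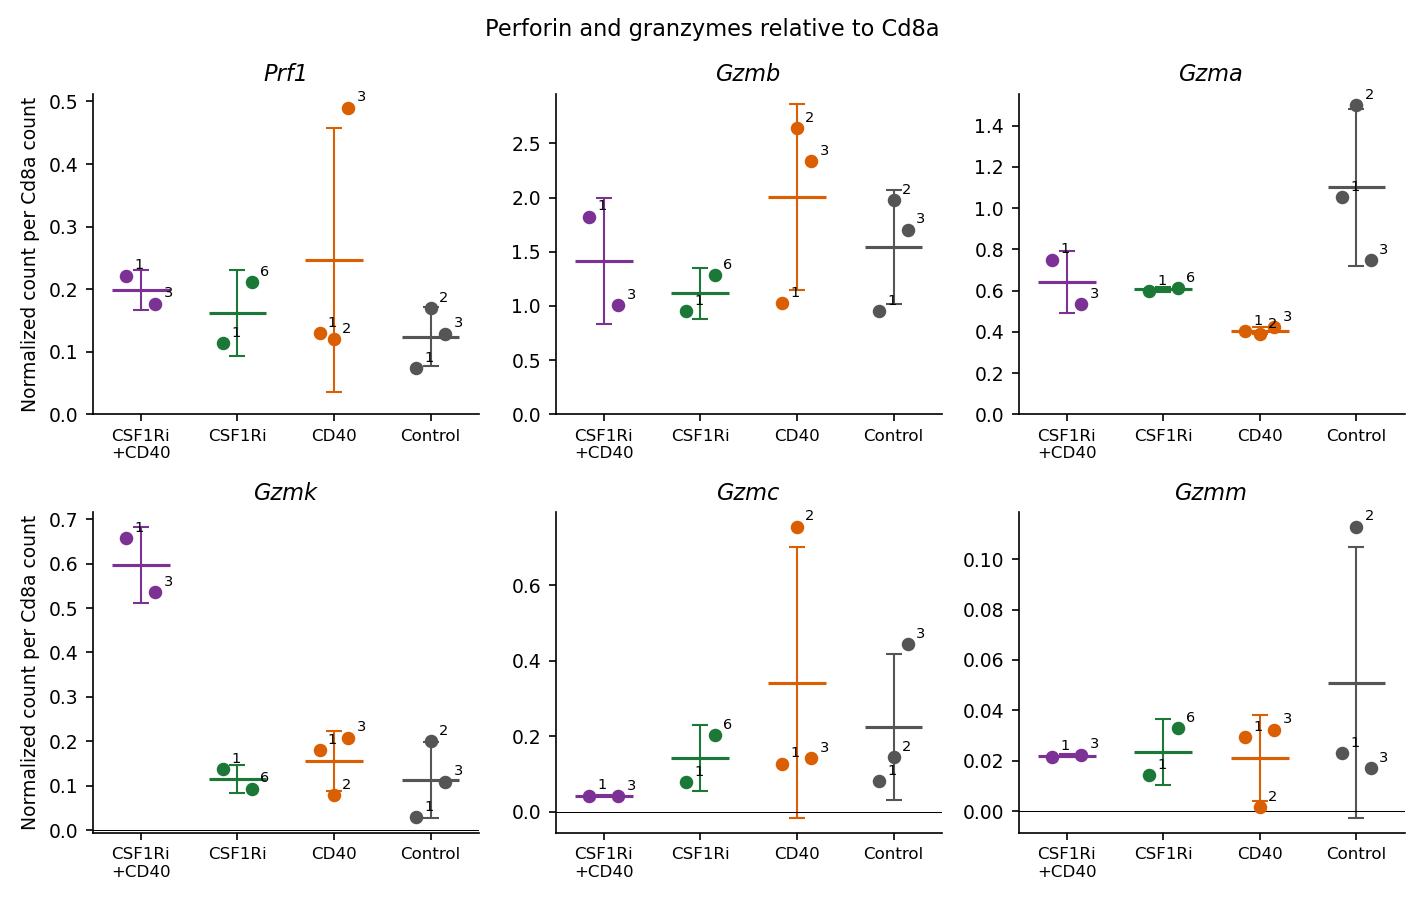
Normalized counts of 6 members divided by the Cd8a normalized count of the same library, with the group mean (line) and SD (bar); groups run from CSF1Ri+CD40 to control. Gzmk is highest in the CSF1Ri+CD40 libraries, at 0.658 and 0.536, and Gzma in CD40 libraries lies between 0.390 and 0.422, below all controls.

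Correlations with Cd8a across the 10 libraries were highest for Gzmk, Gzma, Gzmb and Prf1, and none passed. On log2 values, Gzmk had Pearson's r = 0.702 (permutation p = 0.0237) and Spearman's rho = 0.818 (permutation p = 0.0059). Gzma had r = 0.682 (permutation p = 0.0237) and rho = 0.576 (permutation p = 0.0893), Gzmb r = 0.673 (permutation p = 0.0361) and rho = 0.648 (permutation p = 0.0497), and Prf1 r = 0.613 (permutation p = 0.0618) and rho = 0.648 (permutation p = 0.0493). The other 4 members tested had r between -0.04 and 0.382. No gene of 15715 passed after Benjamini-Hochberg adjustment of these two-sided tests (0% called, 1635 at an unadjusted p under 0.05). The number of permutations limits how small a p-value can be, so a single gene could not have passed. Several genes would have had to reach very small p-values together, so the lack of calls carries little weight. The members' smallest adjusted p was 0.433. Cd8b1, the other CD8 chain, with r = 0.986, met this limit, with a permutation p of 3.0e-05 but an adjusted p of 0.262. The 95th percentile of r over all genes was 0.642, above the r of Prf1.

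Which libraries carry these relations differed by gene. Without control 3 and CD40 3, the libraries farthest from the median of Cd8a, r was 0.862 for Prf1, 0.762 for Gzmk, 0.555 for Gzmb and 0.113 for Gzma. The relation of Gzma with Cd8a thus rests on those libraries. Between departures from the group means, which leave out differences between treatments, r was 0.869 for Gzma and 0.458 for Gzmb (permutation p = 0.00152 and 0.178). For Gzmk it was 0.320 and for Prf1 -0.09 (permutation p = 0.368 and 0.832). Departures within a group sum to 0, yet the permutations shuffled all 10 freely. These unadjusted p-values may therefore be too small, and the correlations of departures are given as a description only. The CD40 libraries ranked alike in Gzma and Cd8a, with CD40 1 highest and CD40 3 lowest in both, whereas CD40 3 had as much Prf1 as CD40 1.

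**Figure D5:**
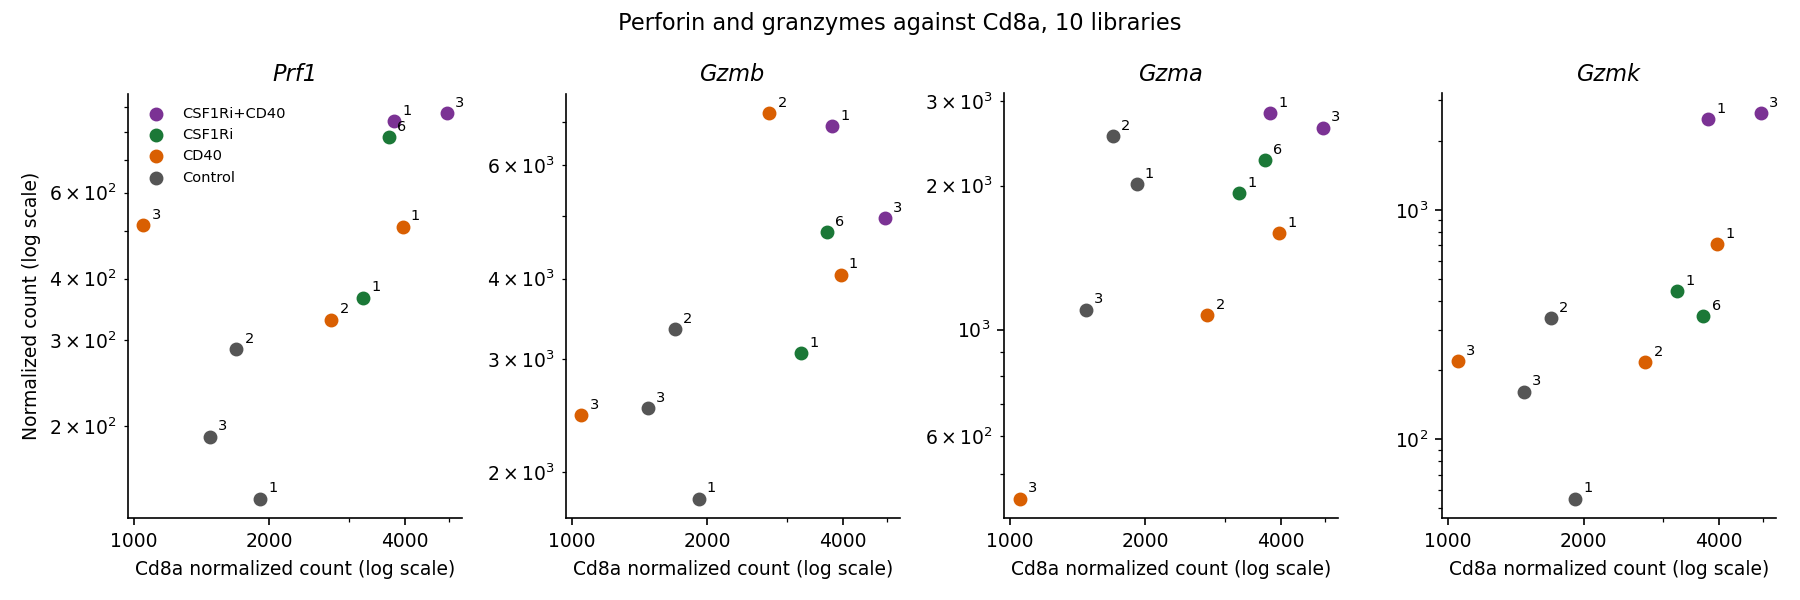
Normalized counts of 4 members against those of Cd8a in the 10 libraries, both on log axes, colored by group and numbered by library. CD40 3 has the least Cd8a and the least Gzma (444) but 515 of Prf1, close to CD40 1 at 511.

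Genes whose profile was most like Gzmb and Prf1 were ranked by Pearson's r of log2 values over the 10 libraries, among 8839 genes with a mean of at least 100 normalized counts. For Gzmb these were Tmem173 (r = 0.963), which encodes the innate sensor STING, Glmp (0.941), Ly6a (0.935), the surface antigen Sca-1, Cxcr3 (0.923), a chemokine receptor of effector T cells, and Gm13394 (0.922). Cxcr3 is also in a list of effector genes described below. For Prf1 they were Tmem63a (0.930), Aamp (0.900), Gm28364 (0.893), Slc43a3 (0.886) and Inpp4b (0.882). These are the highest of many correlations over 10 libraries and carry no test.

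Other parts of the killing pathway were counted in CSF1Ri+CD40 over control, where 49.3% of all genes tested were higher, with a median log2 fold change of 0.00, and 0 genes of any list passed (limma). Of 7 granule proteins, 6 were higher, with a median of 0.32. Nkg7, a granule membrane protein, had 22533 and 26844 normalized counts in the combination and 9665, 14150 and 7193 in control. Ctsw, a protease of killer cells, had 6352 and 6250 in the combination and 2456, 3537 and 3652 in control. Both were above all controls, as were 10.6% of all genes tested. Their log2 fold changes were 1.31 ± 0.569 and 0.99 ± 0.431 (SE, limma adjusted p = 0.914 each). The combination was not set apart from the single treatments in either gene. Nkg7 stood at 16690 and 19413 in CSF1Ri tumors and 22260, 32239 and 5548 in CD40 tumors. Ctsw stood at 5907 and 7890 in CSF1Ri tumors and 8653, 8907 and 2733 in CD40 tumors. Lamp1, a lysosomal membrane protein, was at -0.74 ± 0.334 in the combination over control. Of 9 tested genes for granule release, 8 were higher with a median of 0.39, and the smallest unadjusted p was 0.146, for Stxbp2, a regulator of vesicle fusion.

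Of 5 genes for serpins, inhibitors of proteases, 4 were higher, with a median of 1.17. Serpinb9b, counted as higher, was low and overlapped control, at 32 and 1 normalized counts in the combination and 0, 0 and 46 in control. Serpinb9, the inhibitor of granzyme B, stood at 763 and 841 normalized counts in CSF1Ri+CD40 tumors, 510 and 483 in CSF1Ri tumors, 630, 235 and 394 in CD40 tumors, and 252, 352 and 386 in control tumors. The combination libraries were the highest of the 10 (log2 fold change 1.30 ± 0.404, SE, limma adjusted p = 0.762). Serpina3g, a serpin of activated T cells, had a log2 fold change of 1.17 ± 0.405 (adjusted p = 0.843). Of 7 death ligands and receptors of other pathways 4 were higher, with a median of 0.18, led by Fasl, the Fas ligand, at 1.85 ± 0.736 (adjusted p = 0.914).

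Among 10 transcription factors of killer cells, 7 were higher, with a median of 0.42. Eomes, a T-box factor of effector and memory CD8 cells, stood at 208 and 425 normalized counts in CSF1Ri+CD40 tumors, 48 and 92 in CSF1Ri tumors, 65, 70 and 131 in CD40 tumors, and 86, 26 and 76 in control tumors. The combination libraries were the highest of the 10 in Eomes (log2 fold change 2.40 ± 0.709, SE, limma adjusted p = 0.743). Tbx21, the other T-box factor of the list, overlapped control, at 79 and 164 in CSF1Ri+CD40 tumors and 211, 5 and 159 in control tumors. Stat5b, a signal transducer of interleukin 2, was at -1.20 ± 0.374 (adjusted p = 0.763). Of 9 cytokine receptor genes 7 were higher (median 0.48), with Il2rb, the shared interleukin 2 and 15 receptor chain, at 0.85 ± 0.249 and Il12rb2, of the interleukin 12 receptor, at 3.00 ± 1.14 (adjusted p = 0.743 and 0.895). Il12rb2 overlapped control, at 368 and 96 normalized counts in CSF1Ri+CD40 tumors and 3, 100 and 32 in control tumors. Its counts were 141 and 327 in CSF1Ri tumors and 139, 142 and 280 in CD40 tumors.

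A list of 10 effector genes of CD8 T cells held secreted products and surface receptors such as Cxcr3 and Klrg1. All had a positive log2 fold change in the combination over control (median 0.94). Cxcr6, Klrk1 and Klrg1 still overlapped control, with Klrg1 at 3009 and 3350 in the combination and 2499, 3558 and 3130 in control. Ccl3, an inflammatory chemokine, stood at 1074 and 1830 normalized counts in CSF1Ri+CD40 tumors, 276 and 686 in CSF1Ri tumors, 912, 847 and 203 in CD40 tumors, and 190, 272 and 133 in control tumors. The combination libraries were the highest of the 10 (2.88 ± 0.641, SE, limma adjusted p = 0.521), a property whose share over all genes was not counted. Cxcr3 had a log2 fold change of 1.29 ± 0.405 and Ccl4 one of 2.43 ± 0.973 (adjusted p = 0.774 and 0.914). All 8 genes of the CD8 and T cell receptor list were higher, with a median of 0.44. That list also holds Cd4, at 4203 and 2403 in the combination and 2146, 2226 and 2364 in control.

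Cells other than CD8 T cells can hold these transcripts. Of 9 NK cell markers 8 were tested, of which 4 were higher and 4 lower in CSF1Ri+CD40 over control, with a median of 0.04. Their summed normalized counts were 1097 to 1555 in CSF1Ri+CD40 tumors, 1163 to 1279 in CSF1Ri tumors, 846 to 1815 in CD40 tumors and 895 to 1467 in control tumors, so the groups overlapped. The defining receptors Ncr1 and Klrb1c were present in all libraries, at 236 to 911 and 177 to 501. CD40 2, with the most Gzmb and Gzmc, also had the most Ncr1 and the highest NK sum. The part of NK cells in that library's values was not tested.

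Mast cells, whose chymase genes adjoin the granzyme cluster on chromosome 14, were also traced. All 10 mast cell and basophil markers were higher in CSF1Ri+CD40 over control, with 0 passing the test. Their sum was 14291 and 2947 in CSF1Ri+CD40 tumors, 4097 and 1402 in CSF1Ri tumors, 30323, 3899 and 4680 in CD40 tumors, and 946, 1073 and 3094 in control tumors. CD40 1 had the highest sum, with 5312 of Cma1, a chymase. Gamma delta T cell markers summed to 7648 to 7663 in CSF1Ri+CD40 tumors, 8527 to 14984 in CSF1Ri tumors, 4571 to 11924 in CD40 tumors and 14937 to 20976 in control tumors, and all 7 were lower in the combination than in control. The part of these cells in the members' differences was not tested.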

How the data were processed

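RNA of tumor T cells from 10 pools was sequenced as 75-base paired reads from 50 ng of RNA. Per the submitters' processing notes, the authors aligned reads with STAR to GRCm38 (mm10), counted them with HTSeq and normalized them with DESeq2, with versions not given in the sources used here. The deposited values are scores, normalized counts that the authors rounded to whole numbers, so tools for raw counts were not run. Reads in genes could be estimated for 5 libraries, at about 10300000 to 15000000. Samples were grouped by the labels. A further allele shared by all mice is not reported here.

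Genes with at least 10 in at least 2 libraries (15716 of 48825) were fitted with limma 3.58.1 in R 4.3.3, with a variance trend, on log2(value + 1) in 4 group means, so folds of low genes are understated. Adjusted p-values (Benjamini-Hochberg) run over all genes tested. A further fit subtracted log2(Cd8a + 1). Correlations used 100000 permutations, and fewer with single libraries left out. Levels per kb used GENCODE exon lengths. Scripts were tested on simulated data. Any 2 libraries had equal values in at most 0.554% of genes with a mean of at least 100. Genes named were the members, up to 3 genes of each pathway list with the smallest p in CSF1Ri+CD40 over control or in CD40 averaged over both CSF1Ri levels, defining markers of the cell type lists by their level, and the 5 genes most like Gzmb and Prf1. Tbx21 was named beside Eomes as the other T-box factor of its list. Members, gene lists and tests were chosen with earlier results of these data known. Alternatives covered the pseudocount, filter, normalization, variance trend, samples in the fit, left-out libraries, Y-linked and Malat1 terms, replicate number and denominator.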

Additional observations from a re-analysis of the deposited data

How the results depend on the processing

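Of 256 alternatives over 14 counts of members called, 5 gave a call where the count reported was 0, and the rest gave 0. The count of correlations with Cd8a, among these 14, could give a call only if several genes reached very small permutation p-values together. Its lack of calls under alternatives therefore carries little weight. A term for Y-linked transcripts gave 1 member in CSF1Ri+CD40 over control (Gzmk, 0.00636% of all genes). Relative to Cd8a, leaving out CD40 2 and CD40 3 gave 1 member in CD40 over control (Gzma) and 2 in CSF1Ri+CD40 over control (Gzmk and Gzmc), but 15.6% and 43% of all genes passed there as well. CD40 1 is then the only CD40 library and is assumed to vary like the other groups. Leaving out single libraries gave 0 to 1 and 0 to 2 members in those comparisons, with the calls coming without CD40 3, where 16% and 39.7% of all genes passed. The counts relative to Cd8a are thus no result about the members. The cause was not tested. Of 690 values of single members under alternatives, 655 kept their direction and side of the threshold, 28 changed sign and 7 passed the threshold. No member passed it in the main fits, so no value that changed sign could have passed it there.

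With the Y-linked term, Gzmm in CSF1Ri tumors became -0.28, and Gzmk relative to Cd8a in CSF1Ri tumors became -0.066. Without CD40 2 and CD40 3, Gzmm in CD40 tumors became 0.94, and relative to Cd8a Gzmb became -0.52 and Gzmc -0.45. With Cd8b1 as the denominator, Gzmb in the combination became 0.098. With Cd3e as the denominator, Gzmb and Gzmc in CSF1Ri tumors became 0.12 and 0.081, and Gzma, Gzmb and Gzmm in the combination 0.015, 0.63 and 0.059.

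With single libraries left out, the lowest and highest values in CSF1Ri over control were -0.11 and 0.49 for Gzma, -0.19 and 1.35 for Gzmc and -0.37 and 1.15 for Gzmm. In CD40 over control they were -0.096 and 1.80 for Gzmc and -2.20 and 0.074 for Gzmm. Relative to Cd8a, the CSF1Ri values ran from -0.053 to 0.84 for Prf1, -0.38 to 1.00 for Gzmk, -1.13 to 0.22 for Gzmc and -1.31 to 0.11 for Gzmm. The CD40 values ran from -0.042 to 1.35 for Gzmk and -0.37 to 1.13 for Gzmc, and those of the combination from -0.55 to 0.31 for Gzmb and -1.21 to 0.13 for Gzmm. In the same runs, Gzmk in the combination over control stayed between 3.46 and 4.75.

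Between same-numbered libraries of different groups, departures from the group means had correlations of -0.11 to 0.091. Departures within groups this small sum to 0, so these correlations cannot decide whether same-numbered libraries were paired. With the replicate number as a block, 0 members and 0 genes passed in the 3 comparisons among CSF1Ri+CD40, CD40 and control tumors, and Gzmk in CSF1Ri+CD40 over control had a log2 fold change of 4.31. At most 3 libraries in a group limit the precision, and the fit assumes equal spread in all groups.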
